A study of Mus musculus with 3 samples.

Results

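The genes described here encode 7 subunits of the GABA-A receptor: the alpha subunit genes Gabra2, Gabra3, Gabra4 and Gabra5, the beta subunit genes Gabrb1 and Gabrb2, and the delta subunit gene Gabrd. They were taken by symbol from the 19 GABA-A subunit genes and 32285 genes in all that the matrices list. GABA-A receptors are chloride channels built from several subunits around a central pore, and they carry most fast inhibition in the brain. The alpha subunit sets much of a receptor's pharmacology and placement, a beta subunit takes part in the GABA binding site together with an alpha subunit, and the delta subunit is found in receptors outside synapses that carry tonic inhibition. In the rodent hippocampus, delta with alpha4 is known from dentate gyrus granule neurons, and alpha5 is known for extrasynaptic receptors of pyramidal neurons.

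Single nuclei of mouse hippocampus were sequenced with 10x 3' version 3 chemistry in 3 libraries, 1 per treatment, to ask about HDAC6 inhibition after chemotherapy. The first library came from mice given doxorubicin, a topoisomerase II poison, together with ACY-1083, which inhibits the deacetylase enzyme HDAC6. The second came from mice given doxorubicin, and the third from untreated controls. Each library pooled the flash-frozen hippocampi of both sides from 4 mice, lysed with Triton X-100 to free the nuclei, so animals cannot be told apart and no difference between libraries has a replicate check. Doses, times, strain, sex and age are not given in the labels.

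The matrices held 12192 barcodes for doxorubicin plus ACY-1083, 12221 for doxorubicin and 10909 for control, and their unique molecular identifiers (UMIs, 1 per captured transcript) summed to 62151258 for doxorubicin plus ACY-1083, 21458785 for doxorubicin and 19175447 for control. Median depth per barcode was 3912.5 UMIs for doxorubicin plus ACY-1083, 1485 for doxorubicin and 1487 for control. The doxorubicin plus ACY-1083 library stood apart: of 52 clusters of the 33317 nuclei kept, 30 held at least 95% of their nuclei from it and 19 held at most 5%. Its matrix header also names another Cell Ranger version (5.0.0) than the other two headers (4.0.0). It shared 46 barcodes with the doxorubicin library and 29 with the control library, and the doxorubicin and control libraries shared 42. Levels below are CPM, the UMIs of a gene scaled to 1 common total of UMIs in every class and library, and every interval is a 95% exact interval that covers counting error only. CPM is not corrected for gene length, so levels are compared between classes and libraries of 1 gene and never between genes. Classes are groups of clusters named from marker genes, with the GABA-A subunit genes kept out of the clustering, and 11 classes had at least 100 nuclei in every library.

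Positions are those of assembly GRCm38 in GENCODE vM21. Gabra2 spans chromosome 5, 70957597 to 71095849, on the minus strand. Gabra4 (chromosome 5, 71569749 to 71658308, minus strand) and Gabrb1 (chromosome 5, 71658113 to 72149037, plus strand) lie head to head and overlap by 196 bases. Gabra3 lies on chromosome X, 72432681 to 72656848, minus strand. Gabra5 lies on chromosome 7, 57407672 to 57510059, minus strand, and shares 90368 bases with a neighbouring subunit gene on the other strand. Gabrb2 lies on chromosome 11, 42419757 to 42629028, plus strand, and Gabrd on chromosome 4, 155384980 to 155398112, minus strand. The sources used here do not say whether strand was used in counting, so UMIs in these overlaps are uncertain.

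Gabra2 and Gabra4 are the 2 alpha genes of chromosome 5 whose highest class was granule neurons in the doxorubicin plus ACY-1083 and control libraries. The bases before their start sites are shown because both genes sit in 1 subunit cluster, in lower case with any match to the E-box CANNTG, a motif bound by neuronal bHLH factors, in capitals. They come from RefSeq promoters of build GRCm38.p6 and are read 5′ to 3′ on the minus strand. The Gabra2 stretch is chr5:71095850-71096099, the 250 bases next to the start site. The Gabra4 stretch is chr5:71658364-71658558, 195 bases that begin 56 bases before the start site, beyond the first annotated exon of Gabrb1.
Gabra2: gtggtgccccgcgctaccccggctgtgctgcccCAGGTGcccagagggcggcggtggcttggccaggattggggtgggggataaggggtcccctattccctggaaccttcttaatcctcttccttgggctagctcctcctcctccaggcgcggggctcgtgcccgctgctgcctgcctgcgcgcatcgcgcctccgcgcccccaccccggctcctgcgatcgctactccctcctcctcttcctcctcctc
Gabra4: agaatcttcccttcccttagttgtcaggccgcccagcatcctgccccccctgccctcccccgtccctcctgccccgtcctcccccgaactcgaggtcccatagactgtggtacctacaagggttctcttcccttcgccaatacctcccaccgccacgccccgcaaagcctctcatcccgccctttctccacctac
The Gabra2 stretch held 1 match, CAGGTG, and 66.2% of 32851 promoter stretches of the same length held at least 1 on either strand. The Gabra4 stretch held 0 matches, which says only that these letters are not in that window, and 58.3% of stretches of its length held 1.

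Across the 3 libraries, 4 of the 7 subunit genes had the same highest of the 11 classes in every library. Gabra4 and Gabrd were highest in granule neurons, Gabrb1 in astrocytes and Gabrb2 in GABAergic neurons. Read without the library that stood apart, these 4 genes keep 1 highest class by definition. No other gene joined them: the doxorubicin and control libraries differed in highest class for Gabra2, Gabra3 and Gabra5. The lead over the next class passed counting error in all 3 libraries for Gabrb1 alone, and its interval held 1 in at least 1 library for each of the other 6 genes. These ranks cover the named classes: unnamed clusters of at least 50 nuclei lay above the highest class in at least 1 library for Gabra2, Gabra3, Gabra5, Gabrb2 and Gabrd, and in no library for Gabra4 and Gabrb1.

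Among the alpha genes, Gabra2, whose subunit is common in receptors on axon initial segments of pyramidal neurons, was detected in every class. Gabra2 had 689 CPM in granule neurons of the doxorubicin plus ACY-1083 library (95% interval 674 to 703), 616 in CA1, 609 in CA2/CA3, 527 in thalamic or habenular neurons, 446 in microglia, 411 in astrocytes, 228 in GABAergic neurons, 154 in oligodendrocyte precursors, 119 in oligodendrocytes, 104 in subicular or cortical neurons and 104 in fibroblast-like cells. Gabra2 stood at 389.8 CPM in thalamic or habenular neurons of the doxorubicin library (95% interval 349 to 434), 364 in granule neurons, 322 in CA1, 309 in CA2/CA3, 234 in microglia, 187 in astrocytes, 166 in subicular or cortical neurons, 138 in oligodendrocytes, 128 in oligodendrocyte precursors, 126 in GABAergic neurons and 50.3 in fibroblast-like cells. Gabra2 measured 365 CPM in granule neurons of the control library (95% interval 346 to 385), 320.3 in thalamic or habenular neurons, 315 in CA1, 292 in CA2/CA3, 249 in microglia, 198 in astrocytes, 161 in subicular or cortical neurons, 157 in oligodendrocytes, 134 in GABAergic neurons, 127 in oligodendrocyte precursors and 110.0 in fibroblast-like cells. Granule, CA1, CA2/CA3 and thalamic or habenular neurons filled the first 4 places in each library, microglia and astrocytes the next places, and fibroblast-like cells the last. Granule neurons were 6.60-fold above fibroblast-like cells in the doxorubicin plus ACY-1083 library, 7.23-fold in the doxorubicin library and 3.32-fold in the control library. The first 2 places were not separated in the order: granule over thalamic or habenular neurons gave 0.934 in the doxorubicin library (interval 0.829 to 1.05) and 1.14 in the control library (interval 0.976 to 1.34). GABAergic neurons held less Gabra2 than granule neurons in all 3 libraries, and their intervals did not overlap.

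A UMI of Gabra2 was found in 88.7% of granule nuclei in the doxorubicin plus ACY-1083 library, 38.5% in the doxorubicin library and 38.6% in the control library. In fibroblast-like nuclei, which had the lowest CPM of Gabra2 in each library, the shares were 16.0% (doxorubicin plus ACY-1083), 3.92% (doxorubicin) and 9.09% (control). Median depths in granule nuclei were 4448 UMIs (doxorubicin plus ACY-1083), 1409 (doxorubicin) and 1339.5 (control), and in fibroblast-like nuclei 1589.5 (doxorubicin plus ACY-1083), 797 (doxorubicin) and 783 (control). After each nucleus was thinned to 1000 UMIs, 46.9% (doxorubicin plus ACY-1083), 30.3% (doxorubicin) and 30.4% (control) of granule nuclei held a Gabra2 UMI, against 10.8% (doxorubicin plus ACY-1083), 4.92% (doxorubicin) and 7.14% (control) of fibroblast-like nuclei. The shares in granule nuclei thus lay above those in fibroblast-like nuclei with and without thinning. As the lowest class by CPM was taken for comparison, this says little beyond the order of classes. Whether fibroblast-like nuclei show the level of free RNA was not tested.

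Gabra3, whose subunit is known from monoaminergic, thalamic reticular and some cortical neurons, was sparse in all classes of the doxorubicin and control libraries. Gabra3 had 84.7 CPM in thalamic or habenular neurons of the doxorubicin plus ACY-1083 library (95% interval 73.9 to 96.8), 83.8 in subicular or cortical neurons, 75.2 in oligodendrocyte precursors, 71.1 in GABAergic neurons, 47.6 in CA1, 21.7 in fibroblast-like cells, 14.5 in oligodendrocytes, 11.9 in CA2/CA3, 9.41 in microglia, 8.82 in astrocytes and 3.77 in granule neurons. Gabra3 stood at 25.8 CPM in subicular or cortical neurons of the doxorubicin library (95% interval 19.9 to 32.9), 17.3 in thalamic or habenular neurons, 14.95 in GABAergic neurons, 13.3 in oligodendrocytes, 11.2 in CA1, 10.1 in fibroblast-like cells, 9.21 in microglia, 8.03 in astrocytes, 6.55 in oligodendrocyte precursors, 3.77 in granule neurons and 2.73 in CA2/CA3. Gabra3 measured 26.1 CPM in thalamic or habenular neurons of the control library (95% interval 14.6 to 43.1), 23.8 in oligodendrocyte precursors, 13.9 in subicular or cortical neurons, 13.6 in GABAergic neurons, 8.11 in microglia, 7.36 in oligodendrocytes, 6.85 in CA1, 4.08 in granule neurons, 3.23 in CA2/CA3, 2.43 in astrocytes and 0 in fibroblast-like cells. Granule neurons were in the lowest 4 places, and thalamic or habenular and subicular or cortical neurons were in the first 3 places in each library. Their order was not resolved, since thalamic or habenular over subicular or cortical neurons gave 1.01 in the doxorubicin plus ACY-1083 library (interval 0.833 to 1.23) and 0.671 in the doxorubicin library (interval 0.355 to 1.19). In the doxorubicin plus ACY-1083 library, thalamic or habenular neurons were 22.5-fold above granule neurons (interval 16.4 to 31.4).

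Gabra4, whose subunit pairs with delta in extrasynaptic receptors of granule neurons, had its highest level in granule neurons of all 3 libraries. Gabra4 had 211 CPM in granule neurons of the doxorubicin plus ACY-1083 library (95% interval 203 to 219), 141 in thalamic or habenular neurons, 134 in microglia, 91.3 in astrocytes, 87.6 in CA2/CA3, 77.3 in CA1, 69.0 in GABAergic neurons, 68.7 in subicular or cortical neurons, 34.9 in oligodendrocytes, 26.4 in oligodendrocyte precursors and 23.9 in fibroblast-like cells. Gabra4 stood at 88.7 CPM in granule neurons of the doxorubicin library (95% interval 80.0 to 98.2), 64.5 in microglia, 45.6 in subicular or cortical neurons, 43.7 in astrocytes, 41.5 in thalamic or habenular neurons, 37.9 in oligodendrocytes, 33.8 in GABAergic neurons, 33.2 in CA1, 32.7 in CA2/CA3, 15.1 in fibroblast-like cells and 6.55 in oligodendrocyte precursors. Gabra4 measured 105 CPM in granule neurons of the control library (95% interval 95.2 to 117), 89.2 in microglia, 52.6 in subicular or cortical neurons, 50.9 in GABAergic neurons, 50.5 in thalamic or habenular neurons, 43.6 in CA2/CA3, 39.4 in CA1, 38.0 in oligodendrocytes, 37.7 in astrocytes, 32.4 in fibroblast-like cells and 31.7 in oligodendrocyte precursors. Granule neurons lay 1.497-fold above the next class, thalamic or habenular neurons, in the doxorubicin plus ACY-1083 library (interval 1.34 to 1.68). The next class in the other 2 libraries was microglia, with a fold of 1.38 in the doxorubicin library (interval 0.972 to 2.01) and 1.18 in the control library (interval 0.864 to 1.65), so these neighbours were not separated. The other 9 classes lay below granule neurons in both of those libraries with intervals above 1. Unthinned, 57.4% of granule nuclei in the doxorubicin plus ACY-1083 library, 11.96% in the doxorubicin library and 13.9% in the control library held a Gabra4 UMI, against 4.40% (doxorubicin plus ACY-1083), 1.47% (doxorubicin) and 3.03% (control) of fibroblast-like nuclei. After thinning, the shares in granule nuclei were 18.4% (doxorubicin plus ACY-1083), 8.39% (doxorubicin) and 10.0% (control).

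Gabra5, whose subunit is known for receptors of hippocampal pyramidal neurons, had CA1 and CA2/CA3 neurons within its first 3 places in each library. Gabra5 had 196 CPM in CA2/CA3 of the doxorubicin plus ACY-1083 library (95% interval 187 to 206), 181 in CA1, 143 in subicular or cortical neurons, 109.8 in granule neurons, 72.6 in microglia, 66.5 in thalamic or habenular neurons, 49.4 in oligodendrocytes, 41.0 in GABAergic neurons, 36.3 in astrocytes, 33.0 in oligodendrocyte precursors and 23.9 in fibroblast-like cells. Gabra5 stood at 64.5 CPM in CA2/CA3 of the doxorubicin library (95% interval 54.3 to 76.0), 64.5 in microglia, 63.7 in CA1, 61.9 in granule neurons, 57.5 in subicular or cortical neurons, 50.3 in fibroblast-like cells, 48.2 in oligodendrocytes, 44.6 in astrocytes, 32.3 in thalamic or habenular neurons, 31.2 in GABAergic neurons and 26.2 in oligodendrocyte precursors. Gabra5 measured 79.6 CPM in CA1 of the control library (95% interval 68.6 to 91.9), 79.3 in oligodendrocyte precursors, 68.4 in CA2/CA3, 64.2 in granule neurons, 61.3 in subicular or cortical neurons, 42.6 in microglia, 41.3 in astrocytes, 39.3 in oligodendrocytes, 33.3 in GABAergic neurons, 26.1 in thalamic or habenular neurons and 19.4 in fibroblast-like cells. CA1 over CA2/CA3 gave 0.920 in the doxorubicin plus ACY-1083 library (interval 0.860 to 0.985), where CA2/CA3 was higher, and 0.987 in the doxorubicin library (interval 0.788 to 1.24). Only 4 of the other 10 classes of the doxorubicin library were below CA1 neurons by more than counting error, against 9 in the doxorubicin plus ACY-1083 library and 8 in the control library. These numbers depend on counts. CA1 neurons held 182 Gabra5 UMIs in the doxorubicin library and 186 in the control library. The largest CA1 cluster of the doxorubicin plus ACY-1083 library alone held 1667, which narrows its intervals. After thinning, 15.03% of CA1 nuclei in the doxorubicin plus ACY-1083 library, 6.57% in the doxorubicin library and 7.28% in the control library held a Gabra5 UMI. The thinned shares in GABAergic nuclei were 3.89% (doxorubicin plus ACY-1083), 3.84% (doxorubicin) and 3.14% (control).

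Among the beta genes, Gabrb1 had the clearest class difference of the 7 genes, in astrocytes, a cell type known to carry GABA-A receptors. Gabrb1 had 3167 CPM in astrocytes of the doxorubicin plus ACY-1083 library (95% interval 3088 to 3248), 1411 in CA2/CA3, 1163 in subicular or cortical neurons, 1143 in granule neurons, 943 in CA1, 898 in thalamic or habenular neurons, 796 in microglia, 499 in GABAergic neurons, 481 in oligodendrocyte precursors, 222 in oligodendrocytes and 219.7 in fibroblast-like cells. Gabrb1 stood at 459 CPM in astrocytes of the doxorubicin library (95% interval 420.5 to 501), 165 in granule neurons, 148 in subicular or cortical neurons, 144 in CA1, 142 in CA2/CA3, 125 in thalamic or habenular neurons, 124 in oligodendrocyte precursors, 106 in fibroblast-like cells, 104 in oligodendrocytes, 101 in microglia and 91.0 in GABAergic neurons. Gabrb1 measured 574 CPM in astrocytes of the control library (95% interval 523 to 628), 206 in granule neurons, 169 in CA2/CA3, 160.2 in subicular or cortical neurons, 149 in CA1, 143 in thalamic or habenular neurons, 122 in microglia, 113 in oligodendrocytes, 107 in oligodendrocyte precursors, 84.2 in GABAergic neurons and 71.2 in fibroblast-like cells. Astrocytes were 2.24-fold above the next class, CA2/CA3 neurons, in the doxorubicin plus ACY-1083 library (interval 2.18 to 2.31). They were 2.79-fold above the next class, granule neurons, in both the doxorubicin library (interval 2.48 to 3.13) and the control library (interval 2.48 to 3.13). The Gabrb1 interval of astrocytes overlapped that of no other class in any library. Below astrocytes, GABAergic neurons were among the lowest 2 classes of the doxorubicin and control libraries.

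Astrocytes showed this level although they were shallow, with median depths of 1815 UMIs (doxorubicin plus ACY-1083), 855 (doxorubicin) and 799.5 (control). A Gabrb1 UMI was present in 95.6% of astrocytes of the doxorubicin plus ACY-1083 library, 32.9% of the doxorubicin library and 36.8% of the control library. Fibroblast-like nuclei had 20.8% (doxorubicin plus ACY-1083), 7.84% (doxorubicin) and 6.06% (control). After thinning, the shares were 91.2% (doxorubicin plus ACY-1083), 40.3% (doxorubicin) and 36.2% (control) of astrocytes, against 16.6% (doxorubicin plus ACY-1083), 6.56% (doxorubicin) and 7.14% (control) of fibroblast-like nuclei. The thinned shares rest on 911 (doxorubicin plus ACY-1083), 355 (doxorubicin) and 210 (control) astrocytes, the nuclei with at least 1000 UMIs.

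Gabrb2, a beta subunit gene that is part of the most common synaptic receptor of the adult brain, was highest in GABAergic neurons among the named classes. Gabrb2 had 463 CPM in GABAergic neurons of the doxorubicin plus ACY-1083 library (95% interval 445 to 482), 407 in granule neurons, 311 in thalamic or habenular neurons, 269 in CA1, 256 in microglia, 222 in subicular or cortical neurons, 153 in CA2/CA3, 146 in oligodendrocyte precursors, 64.4 in oligodendrocytes, 52.2 in fibroblast-like cells and 46.2 in astrocytes. Gabrb2 stood at 89.7 CPM in GABAergic neurons of the doxorubicin library (95% interval 75.4 to 106), 73.9 in granule neurons, 69.0 in subicular or cortical neurons, 59.97 in thalamic or habenular neurons, 48.6 in CA1, 40.5 in microglia, 32.8 in oligodendrocyte precursors, 31.8 in oligodendrocytes, 27.3 in CA2/CA3, 25.2 in fibroblast-like cells and 17.8 in astrocytes. Gabrb2 measured 101 CPM in GABAergic neurons of the control library (95% interval 85.0 to 118), 77.5 in granule neurons, 63.2 in subicular or cortical neurons, 59.5 in oligodendrocyte precursors, 52.2 in thalamic or habenular neurons, 51.5 in oligodendrocytes, 50.1 in CA1, 36.5 in microglia, 29.1 in CA2/CA3, 14.6 in astrocytes and 0 in fibroblast-like cells. Unnamed clusters of 205 and 96 doxorubicin plus ACY-1083 nuclei stood above that library's GABAergic neurons, at 573 and 501 CPM. The lead over the next class, granule neurons, was small: 1.14-fold in the doxorubicin plus ACY-1083 library (interval 1.08 to 1.19), 1.21-fold in the doxorubicin library (interval 0.987 to 1.49) and 1.30-fold in the control library (interval 1.06 to 1.59). Astrocytes were among the lowest 2 classes everywhere, with GABAergic neurons 10.0-fold above them in the doxorubicin plus ACY-1083 library, 5.03-fold in the doxorubicin library and 6.89-fold in the control library. Astrocytes thus led for Gabrb1 and stood near the bottom for Gabrb2. A Gabrb2 UMI was present in 79.4% (doxorubicin plus ACY-1083), 15.3% (doxorubicin) and 17.3% (control) of GABAergic nuclei, against 8.17% (doxorubicin plus ACY-1083), 1.73% (doxorubicin) and 1.16% (control) of astrocytes. After thinning, the shares in GABAergic nuclei were 30.5% (doxorubicin plus ACY-1083), 8.11% (doxorubicin) and 9.27% (control).

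Gabrd, the gene of the delta subunit, was highest in granule neurons and near 0 in CA2/CA3 neurons. Gabrd had 38.8 CPM in granule neurons of the doxorubicin plus ACY-1083 library (95% interval 35.5 to 42.4), 21.4 in thalamic or habenular neurons, 20.8 in microglia, 19.4 in GABAergic neurons, 9.55 in oligodendrocytes, 7.38 in subicular or cortical neurons, 5.53 in CA1, 3.63 in astrocytes, 2.77 in CA2/CA3, 2.64 in oligodendrocyte precursors and 2.17 in fibroblast-like cells. Gabrd stood at 30.1 CPM in granule neurons of the doxorubicin library (95% interval 25.1 to 35.8), 16.6 in microglia, 14.99 in thalamic or habenular neurons, 13.3 in oligodendrocytes, 13.1 in oligodendrocyte precursors, 12.5 in astrocytes, 11.9 in subicular or cortical neurons, 11.7 in GABAergic neurons, 8.40 in CA1, 5.03 in fibroblast-like cells and 0.909 in CA2/CA3. Gabrd measured 38.6 CPM in granule neurons of the control library (95% interval 32.5 to 45.5), 26.4 in microglia, 22.4 in GABAergic neurons, 17.0 in astrocytes, 14.7 in oligodendrocytes, 14.3 in subicular or cortical neurons, 11.9 in oligodendrocyte precursors, 10.4 in thalamic or habenular neurons, 7.71 in CA1, 5.92 in CA2/CA3 and 0 in fibroblast-like cells. Granule neurons were 14.0-fold above CA2/CA3 neurons in the doxorubicin plus ACY-1083 library, 33.2-fold in the doxorubicin library (interval 8.99 to 277) and 6.52-fold in the control library (interval 3.53 to 13.4). CA2/CA3 neurons held 25 (doxorubicin plus ACY-1083), 2 (doxorubicin) and 11 (control) Gabrd UMIs, so these intervals are wide. Thalamic or habenular neurons came next in the doxorubicin plus ACY-1083 library, at a fold of 1.82 (interval 1.37 to 2.45), and microglia in the other 2 libraries. Granule neurons over microglia gave 1.82 in the doxorubicin library (interval 0.928 to 4.06) and 1.46 in the control library (interval 0.830 to 2.82), so those neighbours were not separated. A Gabrd UMI was present in 16.3% of granule nuclei of the doxorubicin plus ACY-1083 library, 4.25% of the doxorubicin library and 5.33% of the control library. CA2/CA3 nuclei, which were deeper, at medians of 9342.5 (doxorubicin plus ACY-1083), 3139.5 (doxorubicin) and 3111 (control) UMIs, had 2.804% (doxorubicin plus ACY-1083), 0.299% (doxorubicin) and 1.92% (control). After thinning, the shares were 3.81% (doxorubicin plus ACY-1083), 2.61% (doxorubicin) and 3.44% (control) of granule nuclei, against 0.117% (doxorubicin plus ACY-1083), 0.155% (doxorubicin) and 0.546% (control) of CA2/CA3 nuclei.

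**Figure D1:**
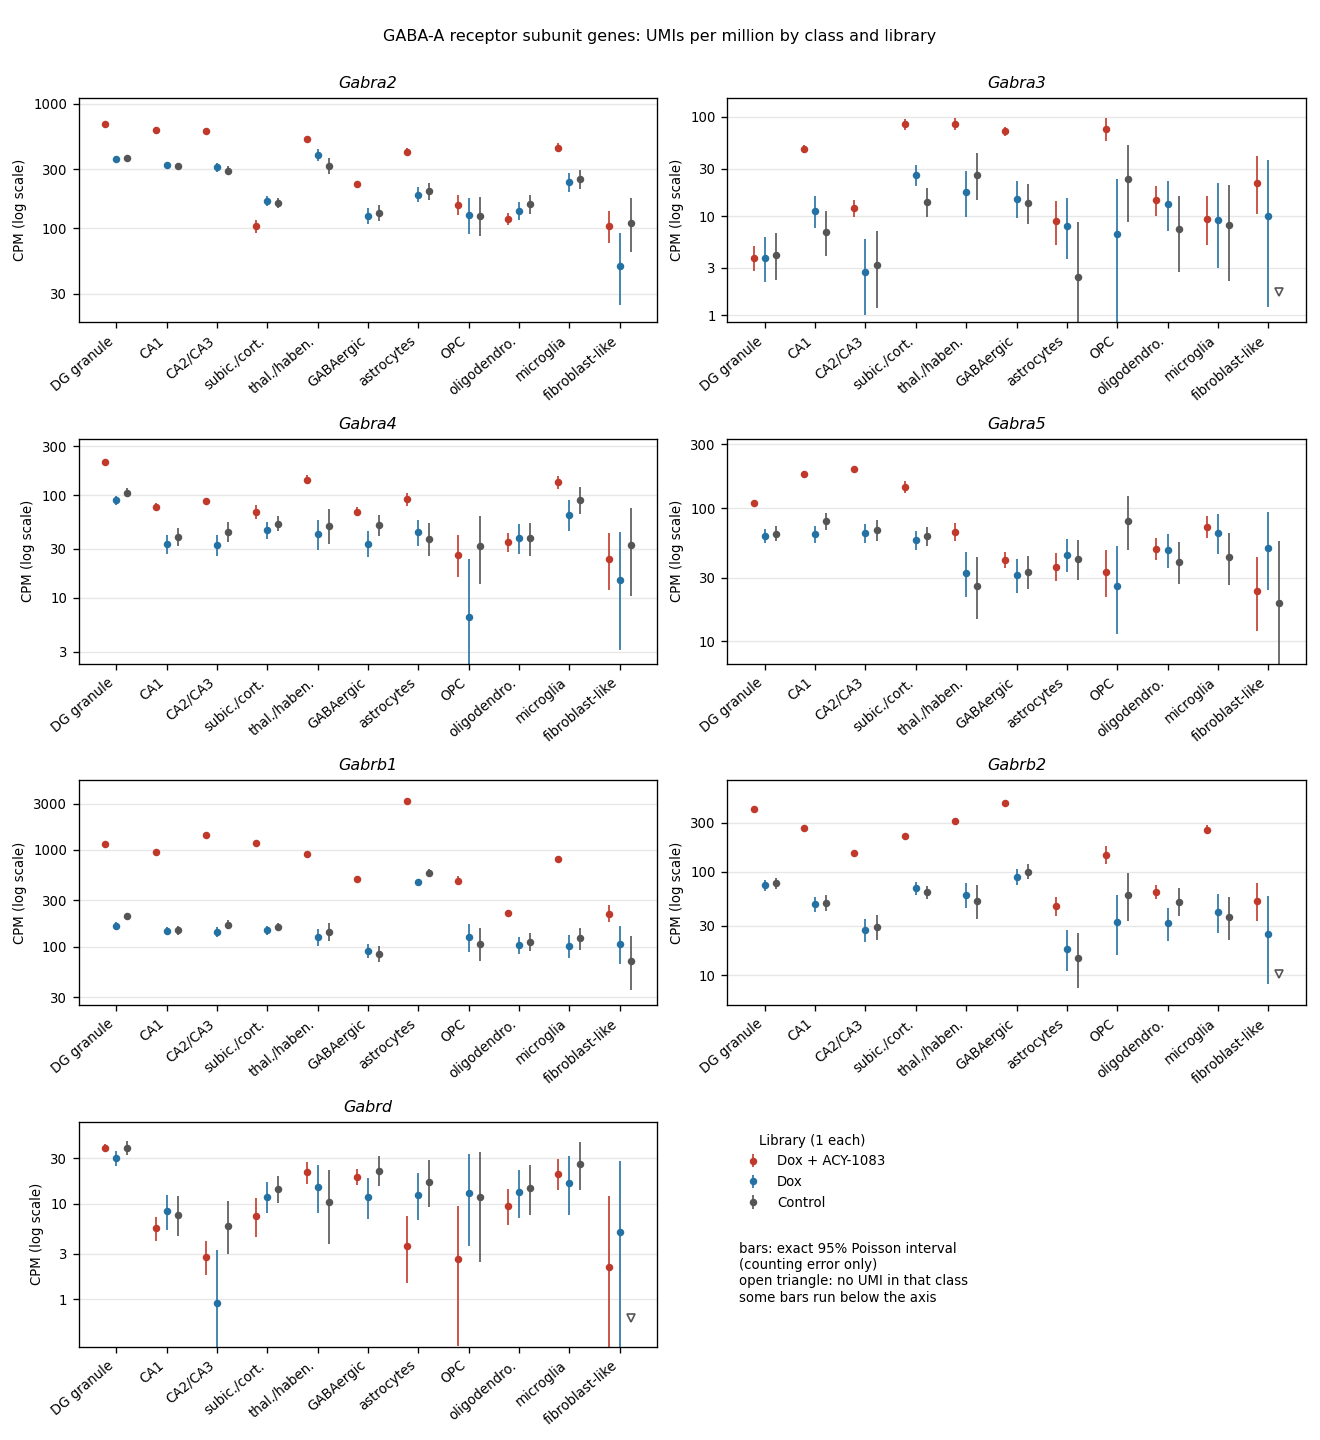
Levels of the 7 subunit genes (CPM, log scale) in 11 classes of nuclei (x axis), with doxorubicin plus ACY-1083, doxorubicin and control side by side and exact 95% Poisson intervals as bars. Astrocytes lead for Gabrb1, granule neurons for Gabra4 and Gabrd, and GABAergic neurons for Gabrb2 in every library.

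Microglia, which are not known as a main site of these neuronal subunits, held most of them at 0.471 to 0.846 times the granule neuron level. Microglia over granule neurons gave 0.648 for Gabra2 in the doxorubicin plus ACY-1083 library, 0.643 in the doxorubicin library and 0.683 in the control library. For Gabra4 the fold was 0.633 in the doxorubicin plus ACY-1083 library, 0.727 in the doxorubicin library and 0.846 in the control library. The 7 marker genes of granule neurons, which microglia should lack, summed to 1029.7 CPM in microglia of the doxorubicin plus ACY-1083 library, 580.4 in the doxorubicin library and 630.4 in the control library. All 7 were detected in microglia of each library, where the 8 microglia markers summed to 1693 CPM (doxorubicin plus ACY-1083), 1253 (doxorubicin) and 1189.8 (control). In granule neurons the granule list summed to 1734 CPM (doxorubicin plus ACY-1083), 1175 (doxorubicin) and 1217 (control). Microglia over granule neurons thus gave 0.594 (doxorubicin plus ACY-1083), 0.494 (doxorubicin) and 0.518 (control) for the list. Granule neuron markers and most subunit genes thus stood at like folds in microglia, and the part of RNA from granule neurons in these levels was not tested. The intervals of Gabra2, Gabrb1 and Gabrb2 lay below 1 in all 3 libraries, and Gabra3 was above 1 in each on at most 14 microglial UMIs a library.

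**Figure D2:**
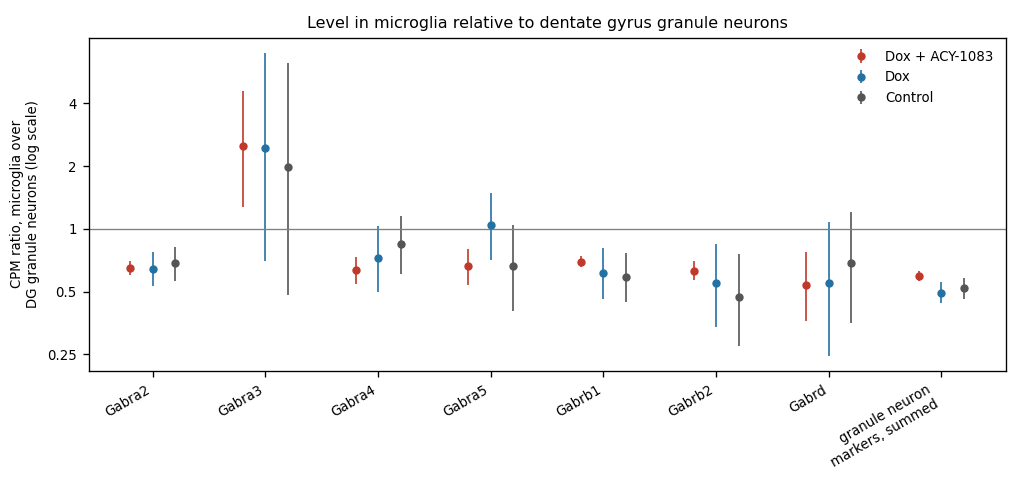
CPM in microglia divided by CPM in dentate gyrus granule neurons (y axis, log scale) for the 7 subunit genes and for the summed granule neuron markers (x axis), by library, with exact 95% intervals. The marker list lies between 0.494 and 0.594, and 5 of the 7 subunit genes lie between 0.471 and 0.846 in all 3 libraries.

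Within GABAergic neurons, parts named from markers of the medial and the caudal ganglionic eminence, the 2 main embryonic sources of hippocampal interneurons, differed in subunit levels. There were 314 medial and 251 caudal type nuclei in the doxorubicin plus ACY-1083 library, 416 and 175 in the doxorubicin library, and 372 and 183 in the control library. Other GABAergic nuclei were named as neither type and left out. Among them was a cluster led by Lamp5, a caudal marker, with 158 doxorubicin and 128 control nuclei. Also left out were 92 doxorubicin plus ACY-1083 nuclei of a cluster that shared the leading genes Hcrtr2 and Cacna2d1 with the Lamp5 cluster. A cluster of 43 doxorubicin plus ACY-1083 nuclei led by Kit was named caudal, so the caudal type may not be the same mix in each library. Gabra2 was lower in the medial type: 139 against 348 CPM in the doxorubicin plus ACY-1083 library, 93.2 against 206 CPM in the doxorubicin library and 95.5 against 235 CPM in the control library. The medial over caudal fold was 0.400 in the doxorubicin plus ACY-1083 library (interval 0.348 to 0.459), 0.452 in the doxorubicin library (interval 0.322 to 0.637) and 0.407 in the control library (interval 0.295 to 0.560). The Gabra2 intervals of the 2 types did not overlap in any library.

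Gabrd ran the other way, with a medial over caudal fold of 6.70 in the doxorubicin plus ACY-1083 library (interval 3.08 to 17.3), 2.49 in the doxorubicin library (interval 0.563 to 22.7) and 3.84 in the control library (interval 1.17 to 19.8). For Gabrd, 65 medial and 7 caudal UMIs were counted with doxorubicin plus ACY-1083, 13 and 2 with doxorubicin, and 25 and 3 in the control library. Gabrb1 was lower in the medial type, at 0.633-fold in the doxorubicin plus ACY-1083 library (interval 0.579 to 0.693), 0.812-fold in the doxorubicin library (interval 0.529 to 1.27) and 0.480-fold in the control library (interval 0.314 to 0.736). Gabrb2 was above 1 in each library, at 1.19 (doxorubicin plus ACY-1083), 1.602 (doxorubicin) and 1.80 (control), with an interval that reached below 1 in the doxorubicin library (0.918 to 2.96). Gabra3 was above 1 in each library, with an interval above 1 in the doxorubicin plus ACY-1083 library alone (1.45-fold, interval 1.14 to 1.86). For Gabra4 and Gabra5 the interval held 1 in every library.

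**Figure D3:**
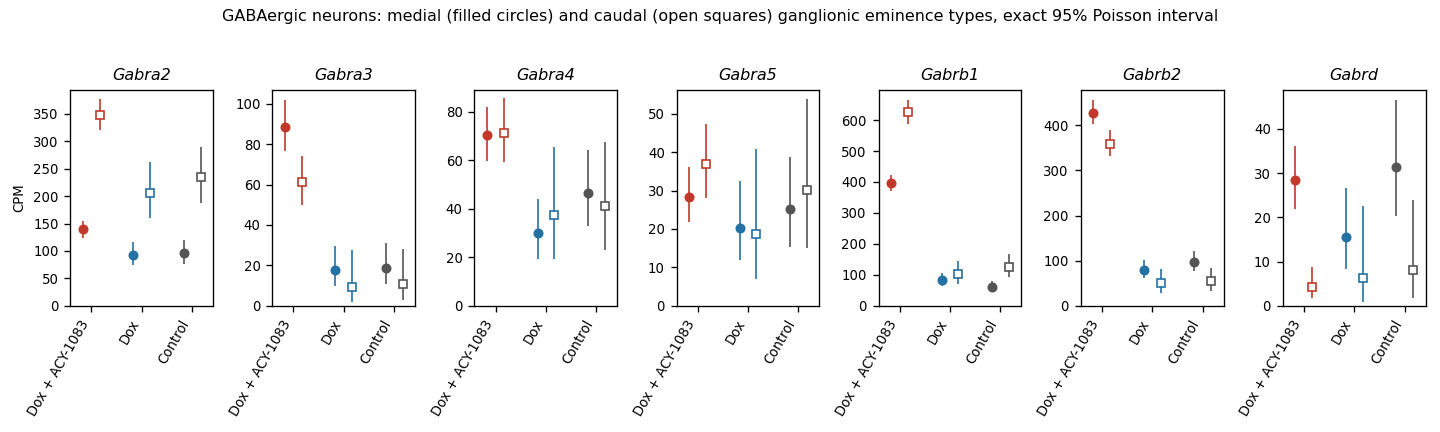
CPM of each subunit gene (y axis, from 0, a scale per gene) in medial type (filled circles) and caudal type (open squares) GABAergic neurons of the doxorubicin plus ACY-1083, doxorubicin and control libraries, with exact 95% Poisson intervals. Gabra2 is lower and Gabrd higher in the medial type of each library, by 0.400 to 0.452-fold and 2.49 to 6.70-fold.

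Likeness over classes was measured by the correlation, over 11 classes, of the mean over libraries of log2(CPM + 20), among 5226 genes. It is a description, since all points share their libraries and depth. In most classes of the doxorubicin and control libraries Gabra3 and Gabrd lay below the 20 CPM added, which flattens their differences there. The Gabra3 profile thus leans on the doxorubicin plus ACY-1083 library, where its levels were higher. Gabra2 was most like Hectd2os (r = 0.912) and Cap2 (r = 0.894). For Gabra3 the 3 most like genes were Cxxc4 (r = 0.960), Elavl4 (r = 0.927) and Fnbp1l (r = 0.926). For Gabra4 they were Nedd4l (r = 0.915), Tspan33 (r = 0.899) and Rasal2 (r = 0.871). Gabra5 was most like Cnksr2 (r = 0.953), Slc17a7 (r = 0.942) and Nos1ap (r = 0.932), and Gabrb1 most like Wwc1 (r = 0.922), Lhx2 (r = 0.887) and Lix1 (r = 0.877). Gabrb2 was most like Ralgapa1 (r = 0.948), Ypel4 (r = 0.944) and Tenm1 (r = 0.940). Gabrd was most like Kirrel3 (r = 0.917), Trpc6 (r = 0.913), which is 1 of the granule neuron markers, and Nrg2 (r = 0.898). Among the subunit genes themselves, Gabra4 and Gabrd had r = 0.788, Gabra2 and Gabra4 r = 0.739, and the head-to-head neighbours Gabra4 and Gabrb1 r = 0.417.

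The doxorubicin library was set against the control library first, and few subunit levels differed. A gene in a class was measured where the 2 libraries together held at least 50 UMIs, and called where the CPM ratio passed 1.5-fold. Of 48 measured pairs of gene and class, 2 were higher and 3 lower in the doxorubicin library, and 43 stayed within 1.5-fold. Over all genes and classes 6.32% of pairs passed 1.5-fold, 2.97% higher and 3.36% lower, so the share among the subunit genes was near the background. The median log2 ratio was -0.09, with 14 pairs above 0 and 34 below. Over all genes the median was also below 0 in 10 of the 11 classes, and lay between -0.06 and 0.05.

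The called pairs held few UMIs. Gabra3 in subicular or cortical neurons had 25.8 CPM in the doxorubicin library and 13.9 CPM in the control library (log2 ratio 0.88, 1.85-fold, 95% interval 1.22 to 2.85), from 65 and 37 UMIs. Gabra5 in microglia had 64.5 CPM in the doxorubicin library and 42.6 CPM in the control library (log2 ratio 0.59, 1.52-fold, 95% interval 0.858 to 2.74), an interval that holds 1. Gabra4 in GABAergic neurons had 33.8 CPM in the doxorubicin library and 50.9 CPM in the control library (log2 ratio -0.59, 0.664-fold, 95% interval 0.457 to 0.958). Those GABAergic neurons also had less Gabrd, at 11.7 CPM in the doxorubicin library and 22.4 CPM in the control library (log2 ratio -0.92, 0.522-fold, 95% interval 0.277 to 0.955). Gabrb2 in oligodendrocytes had 31.8 CPM in the doxorubicin library and 51.5 CPM in the control library (log2 ratio -0.69, 0.617-fold, 95% interval 0.375 to 1.005). With nuclei thinned to 1000 UMIs, which left fewer pairs measured, the count of calls was 1 in place of 5.

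The 2 pairs with the most UMIs were Gabra2 in granule and in CA1 neurons, and both were near a ratio of 1. Gabra2 in granule neurons had 364 CPM in the doxorubicin library and 365 CPM in the control library (log2 ratio -0.00, 0.998-fold, 95% interval 0.927 to 1.07). Gabra2 in CA1 neurons had 322 CPM in the doxorubicin library and 315 CPM in the control library (log2 ratio 0.03, 1.02-fold, 95% interval 0.928 to 1.13). Of the 48 pairs, 10 had an interval that leaves out 1, and 7 of these were within 1.5-fold, 1 higher and 6 lower in the doxorubicin library. The share of all genes and classes with such an interval is not given here, so these counts have no background beside them. The higher pair was Gabra2 in thalamic or habenular neurons, with 389.8 CPM in the doxorubicin library and 320.3 CPM in the control library (log2 ratio 0.28, 1.22-fold, 95% interval 1.01 to 1.46). Granule neurons of the doxorubicin library had less Gabrb1 than those of the control library (165 against 206 CPM, log2 ratio -0.32, 0.801-fold, 95% interval 0.721 to 0.889). Gabrd was also lower in the doxorubicin library's granule neurons (30.1 against 38.6 CPM, log2 ratio -0.36, 0.781-fold, 95% interval 0.610 to 0.998), as was Gabra4 (88.7 against 105 CPM, log2 ratio -0.25, 0.841-fold, 95% interval 0.728 to 0.972). The other 3 lower pairs lay outside granule neurons, and 2 of them were Gabrb1. Astrocytes had 459 CPM of Gabrb1 in the doxorubicin library and 574 CPM in the control library (log2 ratio -0.32, 0.800-fold, 95% interval 0.705 to 0.909). CA2/CA3 neurons had 142 CPM of Gabrb1 in the doxorubicin library and 169 CPM in the control library (log2 ratio -0.25, 0.844-fold, 95% interval 0.719 to 0.990). Gabra5 in CA1 neurons had 63.7 CPM in the doxorubicin library and 79.6 CPM in the control library (log2 ratio -0.32, 0.800-fold, 95% interval 0.648 to 0.986). These intervals hold counting error alone, and with 1 library each the spread between animals is unknown.

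The doxorubicin plus ACY-1083 library was then set against the doxorubicin library, which both comparisons share. Of 61 measured pairs, 48 were higher, 2 lower and 11 within 1.5-fold, with a median log2 ratio of 1.21. Over all genes and classes 66.2% of pairs passed 1.5-fold, 29.5% higher and 36.6% lower, so most genes differed between these 2 libraries. The subunit genes described here were thus called higher more often than the background. They were chosen with earlier results of these data known, and their pairs all share the same 2 libraries. The count therefore cannot show an excess for GABA-A subunit genes as a group. Over all genes the ratio moved with intron length, as described below. In 10 of the 11 classes, all but fibroblast-like cells, the largest cluster of the doxorubicin plus ACY-1083 library was another one than that of the doxorubicin library, so each ratio within those classes sets different clusters against each other. The doxorubicin and control libraries shared the largest cluster in each of the 11 classes.

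Gabrb1 and Gabrb2 had the largest median ratios. Gabrb1 was higher in all 11 classes, with a median log2 ratio of 2.78 and a range of 1.03 to 3.31. In granule neurons it had 1143 CPM in the doxorubicin plus ACY-1083 library and 165 CPM in the doxorubicin library (log2 ratio 2.79, 6.94-fold, 95% interval 6.43 to 7.49). Gabrb2 was higher in all 10 classes measured, with a median of 2.36. In GABAergic neurons it had 463 CPM in the doxorubicin plus ACY-1083 library and 89.7 CPM in the doxorubicin library (log2 ratio 2.36, 5.16-fold, 95% interval 4.34 to 6.17). Gabra3 was higher in 6 of 7 classes, with a median log2 ratio of 2.07 and a highest of 3.21. That highest ratio was in oligodendrocyte precursors, where the doxorubicin library held 2 Gabra3 UMIs. Because the UMIs of both libraries are summed, a pair sparse in the doxorubicin library could be measured through the other library alone. In doxorubicin over control Gabra3 was measured in 1 class, so these Gabra3 counts lean on where it was high. The exception was granule neurons, with 3.77 CPM in the doxorubicin plus ACY-1083 library and 3.77 CPM in the doxorubicin library (log2 ratio -0.03, 1.002-fold, 95% interval 0.559 to 1.89). The log2 ratio there differs in sign from the fold because log2 ratios alone have 0.5 counts added.

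Gabra4 was higher in 8 of 9 classes with a median log2 ratio of 1.05, Gabra2 in 7 of 11 with a median of 0.92, and Gabra5 in 5 of 9 with a median of 0.83. In granule neurons Gabra4 had 211 CPM in the doxorubicin plus ACY-1083 library and 88.7 CPM in the doxorubicin library (log2 ratio 1.25, 2.38-fold, 95% interval 2.14 to 2.66). Gabra2 was lower in 1 class, subicular or cortical neurons, with 104 CPM in the doxorubicin plus ACY-1083 library and 166 CPM in the doxorubicin library (log2 ratio -0.67, 0.628-fold, 95% interval 0.537 to 0.734). The largest cluster of that class held 410 nuclei in the doxorubicin plus ACY-1083 library, with 97.2 CPM of Gabra2, and another of 1333 nuclei in the doxorubicin library had 166 CPM. Another 5 clusters, made of doxorubicin plus ACY-1083 nuclei, had Tshz2 among their leading genes like that doxorubicin cluster but stayed unnamed, and the 4 of at least 50 nuclei held Gabra2 at 414, 329, 202 and 497 CPM. Gabrd was measured in 4 classes, 1 higher and 1 lower, and in granule neurons it had 38.8 CPM in the doxorubicin plus ACY-1083 library and 30.1 CPM in the doxorubicin library (log2 ratio 0.36, 1.29-fold, 95% interval 1.06 to 1.58).

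**Figure D4:**
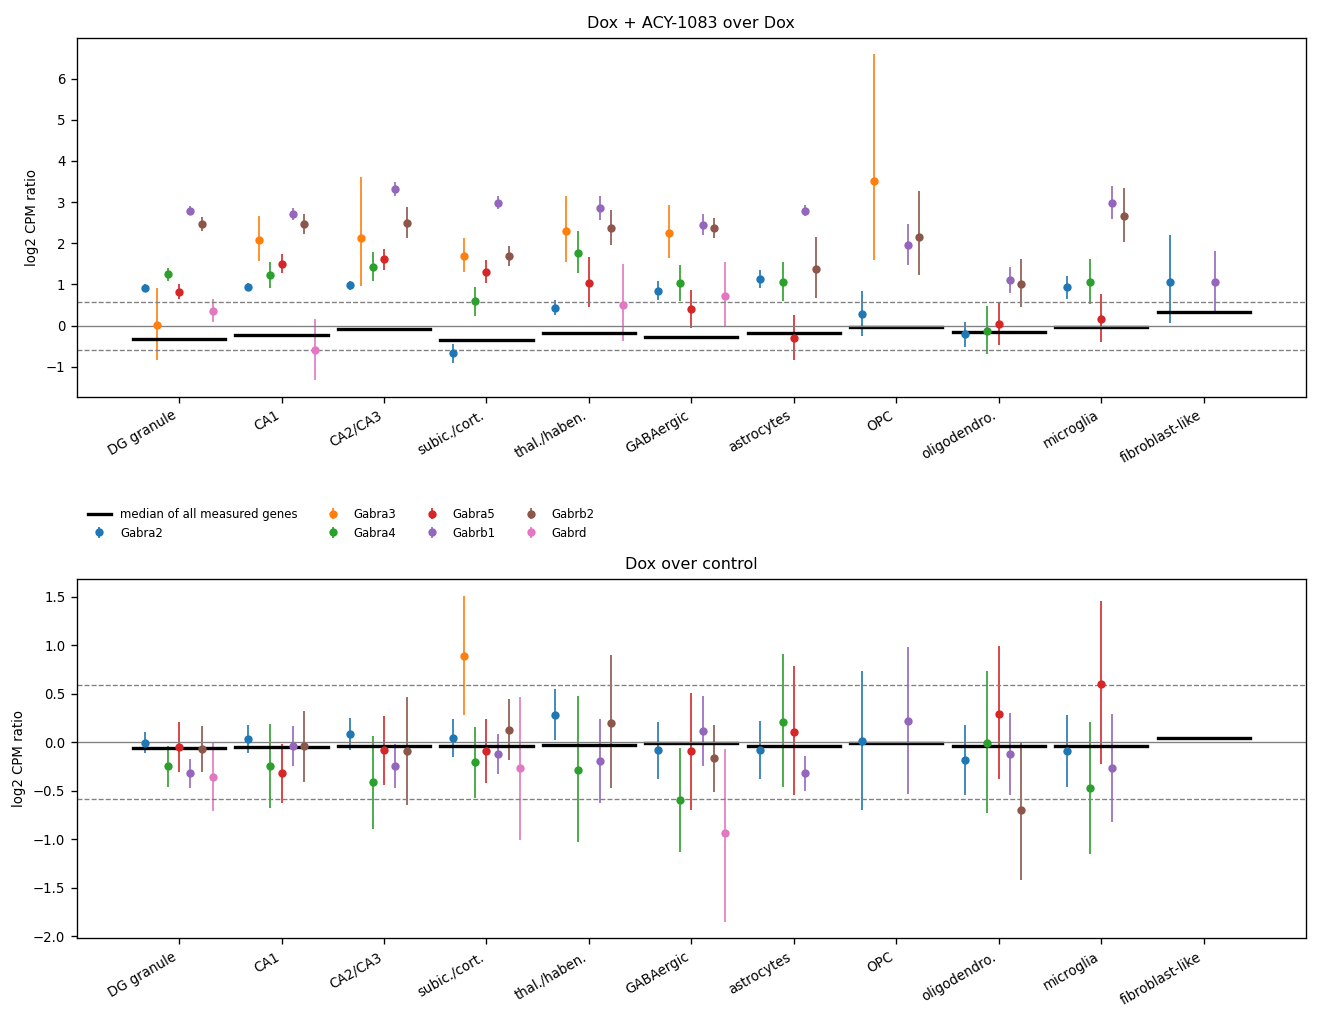
Log2 CPM ratio (y axis) of each measured subunit gene in 11 classes (x axis), for doxorubicin plus ACY-1083 over doxorubicin (upper panel) and doxorubicin over control (lower panel), with exact 95% intervals, the median of all measured genes (black bars) and the 1.5-fold limits (dashed). In the upper panel Gabrb1 and Gabrb2 lie above the upper limit in every class measured, and in the lower panel 43 of 48 points lie within the limits.

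The size of the ratio between the doxorubicin plus ACY-1083 and doxorubicin libraries moved with intron length over all genes. Spearman's rho of log2 ratio and intron length lay between 0.576 and 0.730 over the 11 classes, and between -0.256 and -0.037 for doxorubicin over control. Genes are not independent replicates, so rho is given as a description. Among the subunit genes, Gabrb1 has 477087 bases of intron, Gabra3 220244, Gabrb2 202912, Gabra2 130613, Gabra5 99414, Gabra4 82477 and Gabrd 10258. A smooth trend on intron length over all genes, fitted per class, gave a median trend log2 ratio of 2.13 for Gabrb1, 1.29 for Gabrb2 and -0.77 for Gabrd. The sources used here do not say whether intron reads were counted alike in the 2 libraries, and the part of that in the ratios was not tested.

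With the trend subtracted, 26 of the 61 pairs were past 1.5-fold higher and 5 past 1.5-fold lower, against 43.3% of all pairs either way, 25.3% higher and 18.0% lower. Gabrb2 was still higher in 7 of 10 classes, with 1.21 left of its log2 ratio in granule neurons and 1.02 in GABAergic neurons. Gabrb1 was higher in 5 of 11 classes after the trend and Gabra4 in 4 of 9, and Gabra2 in 0 of 11. Gabrd, the gene with the shortest introns, was higher in 3 of 4 classes after the trend, against 1 before, with 1.10 in granule neurons. Gabra3 was higher in 4 of 7 classes after the trend and Gabra5 in 3 of 9. In granule neurons Gabra3 was -1.35 after the trend, below genes of like intron length. In doxorubicin over control, subtracting the trend left 2 higher and 2 lower of 48, against 3.32% higher, 2.74% lower and 6.07% either way over all pairs.

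**Figure D5:**
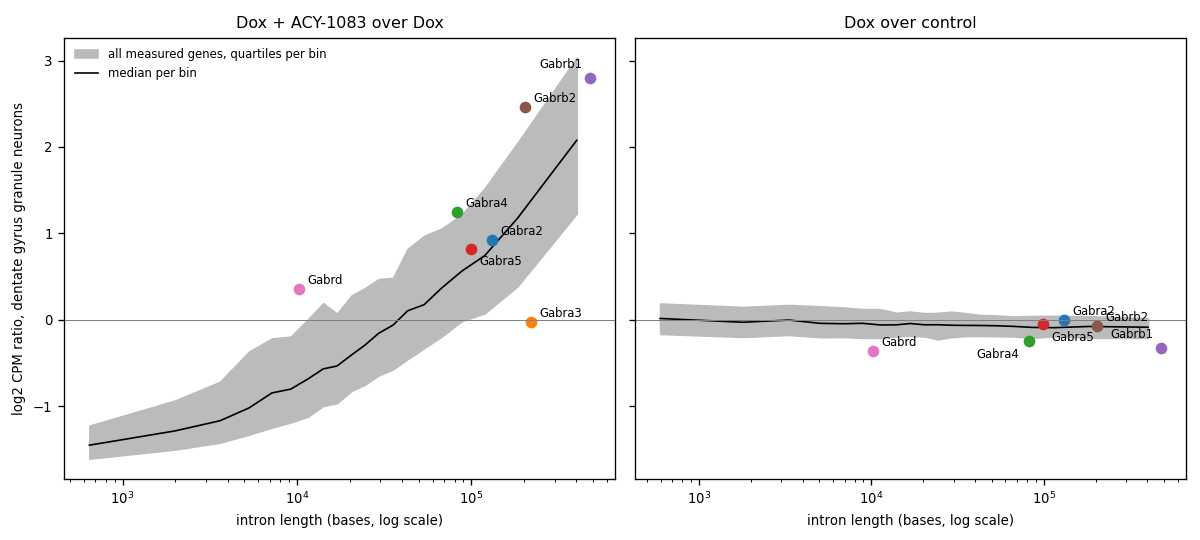
Log2 CPM ratio in dentate gyrus granule neurons (y axis) against intron length in bases (x axis, log scale) for doxorubicin plus ACY-1083 over doxorubicin (left) and doxorubicin over control (right), with the median (line) and quartiles (grey) of all measured genes per bin and the measured subunit genes as points. On the left the median rises with intron length, and on the right it stays near 0. Gabrb2 at 2.46, Gabra4 and Gabrd lie above the grey band on the left, and Gabra3 lies below it.

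Other genes of GABA signalling were read from lists of synthesis and release, uptake and breakdown, scaffold, trafficking, metabotropic receptor and chloride transport genes. In doxorubicin over control, 5 of 249 measured pairs were higher and 7 lower, against 2.97% and 3.36% of all pairs. The 2 outermost were Clptm1, a protein that limits GABA-A receptor export, in astrocytes, with 65.1 CPM in the doxorubicin library and 28.0 CPM in the control library (2.33-fold, interval 1.44 to 3.90), and Plcl1, a binding partner of beta subunits, in microglia, with 55.3 CPM in the doxorubicin library and 91.2 CPM in the control library (0.606-fold, interval 0.369 to 0.983). No metabotropic receptor, uptake or chloride transport pair was called, of 37, 27 and 19 measured.

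In doxorubicin plus ACY-1083 over doxorubicin, 63 of 295 pairs of these lists were higher and 128 lower, against 29.5% and 36.6% of all pairs. The synthesis and release genes were lower in 16 of 23 pairs and higher in 0, and the metabotropic receptor genes higher in 26 of 48 and lower in 16. Of the synthesis and release pairs, 3 were in GABAergic neurons, and 2 of these were lower. Gad2 there had 272 CPM in the doxorubicin plus ACY-1083 library and 256 in the doxorubicin library (1.07-fold, interval 0.952 to 1.19). The other pairs lay in other classes. The lowest, Gad2 in CA1 neurons, had 33 UMIs with doxorubicin plus ACY-1083 and 39 with doxorubicin. The outermost pairs were Kctd8, an auxiliary subunit of the metabotropic receptor, in CA1 neurons, where the doxorubicin plus ACY-1083 library held 103 UMIs and the doxorubicin library 0, and Hap1, a protein that aids recycling of GABA-A receptors, in oligodendrocytes, with 10.8 CPM in the doxorubicin plus ACY-1083 library and 128 CPM in the doxorubicin library (0.0843-fold, interval 0.0530 to 0.129). The subunit genes described here and these lists thus had unlike counts of calls between the same 2 libraries. These counts were not tested against each other, and both sets were chosen with earlier results of these data known. The list counts are given without the intron length trend subtracted, and intron lengths of the list genes are not given here.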

How the data were processed

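The authors deposited unnormalized UMI counts for each gene in each barcode. Cell Ranger wrote them, version 5.0.0 or 4.0.0 per the file headers and 6.0.0, with build mm10, per the submitters' processing notes. Nuclei with at least 300 genes and under 5% mitochondrial UMIs were kept, and Scrublet doublets (expected rate 0.08; 3.78% of doxorubicin plus ACY-1083, 5.63% of doxorubicin and 7.80% of control barcodes) were removed. All kept nuclei were clustered together (scanpy 1.11.5; 2000 variable genes without GABA-A subunits, 30 principal components, 15 neighbours, Leiden resolution 1). Clusters were named from marker lists by the mean log2 fold of at least 3 detected markers (0.75 for neurons, 1 for others, with 20 CPM added), large unnamed clusters were split once more, and 19 of 52 stayed unnamed; unnamed nuclei entered no class, and thresholds were set after seeing the data. UMIs were summed per library and class. CPM has an exact Poisson interval and a CPM ratio an exact Clopper-Pearson interval given the sum, with 0.5 counts added for log2 alone. With 1 library per group no test was run. The ratios were tested on simulated data. Intron length came from GENCODE vM21, which matched 99.6% of genes. The 7 subunit genes were named throughout, with the 3 genes most like each by correlation (1 for Gabra2 is not reported here) and the outermost ratios of other GABA genes. The members and lists were chosen with earlier results of these data known. Alternatives covered normalization, doublets, filters, depth, clustering and intron length.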

Additional observations from a re-analysis of the deposited data

Results flagged for a closer look

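The log2 ratio of Gabra2 for doxorubicin plus ACY-1083 over doxorubicin was -0.67 in subicular or cortical neurons, while it was above 0 in 9 of the other 10 classes, where the exception was oligodendrocytes at -0.22. Opposite directions of 1 gene in classes of the same 2 libraries singled it out, and the difference was not tested. The largest cluster differed between the 2 libraries in this class, as it did in 9 of the other 10.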

How the results depend on the processing

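No paired analysis was possible because each group is 1 library. For doxorubicin over control, the 5 calls became 2 with doublets kept, 1 with nuclei thinned to 1000 UMIs, 3 with each library clustered on its own, 2 with subunit genes allowed among the variable genes, and 11 with a minimum of 20 UMIs, and stayed at 4 or 5 under the other alternatives. The cause was not tested, but thinning and the lower minimum change how many pairs are measured, to 31 and 63. For doxorubicin plus ACY-1083 over doxorubicin, the 50 calls became 31 with the intron length trend subtracted and 36 to 56 otherwise. In both comparisons the share over all genes is given for the main setting and the intron length trend alone. The other counts of calls have no background beside them and are no result about these genes. Subtracting the trend turned the sign of 7 called ratios: Gabrd in CA1 neurons to 0.10, Gabra2 to -0.0697 in CA2/CA3 neurons, -0.0126 in GABAergic neurons and -0.0021 in fibroblast-like cells, and Gabrb1 to -0.14 in oligodendrocyte precursors, -0.44 in oligodendrocytes and -0.99 in fibroblast-like cells. No other alternative turned a called ratio. The number of genes with 1 highest class in all libraries was 4, and 3 to 5 under the alternatives. Gabra4, Gabrb1 and Gabrb2 kept their highest class in each, and Gabrd in each but thinning, where microglia led in the control library. Thalamic or habenular neurons fell below 100 nuclei in a library, and were not compared, with doublets kept, at 600 genes per nucleus, at resolution 0.5, with each library on its own and with subunit genes allowed. Depth limits Gabra3 and Gabrd most: in fibroblast-like cells of the control library both had 0 UMIs, and 3 UMIs, taken as the floor, would be 19.4 CPM. Reading control and doxorubicin alone was chosen after seeing the data.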

Other observations

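Among 4 classes too small to compare, the Gabrb1 interval lay above that of fibroblast-like cells in the doxorubicin plus ACY-1083 library alone. By CPM all 4 were above fibroblast-like cells in the control library too, and ependymal cells alone in the doxorubicin library. Fibroblast-like cells had 219.7 CPM in the doxorubicin plus ACY-1083 library, 106 in the doxorubicin library and 71.2 in the control library. In ependymal cells it had 633 CPM in the doxorubicin plus ACY-1083 library (interval 456 to 856), 189 in the doxorubicin library (interval 94.6 to 339) and 204 in the control library (interval 87.9 to 401), from 27 (doxorubicin plus ACY-1083), 40 (doxorubicin) and 31 (control) nuclei. In choroid plexus epithelium it had 437 CPM in the doxorubicin plus ACY-1083 library, 98.9 in the doxorubicin library and 103 in the control library, from 122 (doxorubicin plus ACY-1083), 135 (doxorubicin) and 96 (control) nuclei. Endothelial cells had 446 CPM in the doxorubicin plus ACY-1083 library, 95.3 in the doxorubicin library and 178 in the control library. Cajal-Retzius cells had 367 CPM in the doxorubicin plus ACY-1083 library, 45.5 in the doxorubicin library and 126 in the control library. The intervals of all 4 classes lay above that of fibroblast-like cells in the doxorubicin plus ACY-1083 library and overlapped it in the other 2 libraries.

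Granule nuclei that held UMIs of both Gabra4 and Gabrd after thinning numbered 16 in the doxorubicin plus ACY-1083 library, where independent detection of the 2 genes would give 18.0. They numbered 5 in the doxorubicin library, where it would give 5.12, and 7 in the control library, where it would give 7.01. Gabrd was found in 98 of 2572 (doxorubicin plus ACY-1083), 61 of 2337 (doxorubicin) and 70 of 2037 (control) thinned granule nuclei. With so few, these counts can show little about co-expression either way, and nuclei at full depth were not counted.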
